A study of Mus musculus with 14 samples.

Results

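The 6 cyclin-dependent kinase inhibitor genes Cdkn1a, Cdkn1b, Cdkn2a, Cdkn2b, Cdkn2c and Cdkn2d were followed across blood progenitors that lacked or carried Tet2. They were read by all 8 probe sets that the platform annotation gives to these symbols, out of 45037 mouse probe sets and 18193 genes on the array. The Tet2 protein is an enzyme that turns methylated cytosines of DNA into oxidised forms. Replated KO cells came from CD150+ Tet2-deficient LSK cells plated 5 times in succession in culture, and no replated WT cells were analysed here. KO progenitors were taken from Tet-/-Mx+ mice, as the labels write it for the Tet2 KO, and WT progenitors from Tet2+/+ Mx+ littermates on a B6/129 background. Both genotypes carry Mx, and deletion was induced by pIC, an inducer of the Mx promoter, which is active in tissues other than blood too; the age of the animals is not given. LSK cells are lineage-negative bone marrow cells positive for c-Kit and Sca1, which include the blood stem cells. CMP, the common myeloid progenitors, and GMP, the granulocyte-macrophage progenitors, lack Sca1, carry CD34 and differ by a low or high Fc gamma receptor. LSK and CMP were collected 4 weeks after deletion, and no time is given for GMP. Each of the 7 groups had 2 arrays, and since no label says that these came from separate animals or cultures, a p-value here measures only the spread between these samples.

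Cyclin-dependent kinases (CDKs) drive cells through the division cycle, and their inhibitors bind them and hold division back. Cdkn1a (p21) and Cdkn1b (p27) belong to the Cip/Kip family, which inhibits many cyclin-CDK complexes, while the Cdkn2 genes encode the INK4 proteins p16, p15, p18 and p19, which bind CDK4 and CDK6. Both families keep the RB proteins active, and active RB proteins restrain the E2F factors that switch on genes of S phase. In the blood system p21, p27 and p18 are known for their part in stem cell quiescence and renewal, and p16 and Arf, both made from Cdkn2a, are kept silent by Polycomb proteins in young stem cells.

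The deposited intensities are linear, and their log2 was taken for every test. The median of an array lay between 31.2 and 33.0. The highest of 27 bacterial control probe sets on each array, between 20.8 and 27.8, served as its floor. The Tet2 probe set with the highest mean read 855 to 2376 on the sorted KO arrays, 1786 and 1823 on the replated KO arrays and 454 to 2045 on the WT arrays; the labels do not say where it lies relative to the deleted stretch, so it checks nothing about the deletion. Xist was at 4980 to 6634 on the sorted KO arrays, at 18.4 and 21.9 on the replated arrays and at 18.7 to 29.7 on the WT arrays, and the Y-linked Eif2s3y ran the opposite way. Tet2 status and this sex-linked difference cannot be told apart in the sorted cells, and the replated arrays differ from the sorted KO arrays in it too. Kit and Cd34 lay above the floor in all sorted groups, and Flt3 read 1017 to 2500 in LSK against 221 to 301 in GMP. Granulocyte genes were not limited to GMP: Mpo read 6472 to 7735 in LSK, 10163 to 10550 in CMP and 12139 to 12628 in GMP, and the neutrophil genes S100a8 and S100a9 read 4311 to 8907 in LSK. On the replated arrays Kit, Cd34 and Slamf1, the gene of CD150, lay above the floor. The stem cell gene Procr and 4 of 6 early granulocyte genes (Mpo, Elane, Prtn3 and Ctsg) lay below it on both arrays. Kit read 4913 and 5568 on the replated arrays, against 2084 and 2497 in KO LSK. Flt3 read 34.6 and 21.0 there, above the floor on 1 of the 2 arrays, and the stem cell gene Mecom read 2805 and 3155.

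With all arrays in the fit, inhibitors passed the test in the replated cells and in no other comparison. Cdkn1a, Cdkn2a and Cdkn2b were higher in replated KO cells than in KO LSK, KO CMP and KO GMP, and Cdkn2d was higher than in KO GMP, while Cdkn1b and Cdkn2c passed the test nowhere. Counted as probe sets, 4 of 8 passed an adjusted p of 0.05 in limma against KO LSK and 4 of 8 against KO CMP, and 5 of 8 against KO GMP, all of them higher. Of all 45037 probe sets, 19%, 18.3% and 19% passed against KO LSK, KO CMP and KO GMP, and 9.35%, 8.83% and 8.77% passed as higher. The 4 that passed as higher in each of the 3 comparisons, which share the replated arrays, stand beside 5.58% of all probe sets. The members' median log2 difference was 1.003, 0.91 and 1.30 against KO LSK, KO CMP and KO GMP, or 0.38, 0.23 and 0.71 with Cdkn2a and Cdkn2b taken at their lower bounds, beside 0.03, -0.03 and -0.02 over all probe sets. In bulk samples, a change in the share of cells that express a gene and a change in RNA per cell cannot be told apart.

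Genes of several cell types moved with this result. All 6 measured genes of a mast cell and basophil list lay above the floor on both replated arrays, where they summed to 57357 and 59366, against sums of 478 to 3385 on the sorted KO arrays and 413 to 2833 on the WT arrays. The members of this list did not all move alike: the basophil protease gene Mcpt8 read 496 and 485 on the replated arrays, above 113 and 163 in KO LSK but below 857 and 1022 in KO GMP (log2 difference -0.93, limma adjusted p = 0.0297). The 6 early granulocyte genes summed to 6085 and 5845 on the replated arrays and to 14402 to 43487 on the sorted KO arrays. That replated sum was mostly the Fc receptor gene Fcgr3, at 5454 and 5258, which rose relative to KO LSK and KO CMP (log2 differences 3.77 and 2.60), while Mpo fell to 14.1 and 14.2. Monocyte and macrophage genes, of which 3 of 4 lay below the floor on both replated arrays, summed there to 110 and 101, against 372 to 3241 on the sorted KO arrays. Late neutrophil genes summed to 119 and 107 on the replated arrays, against 12119 to 18768 on the sorted KO arrays. Megakaryocyte and erythroid genes moved both ways. Vwf read 1678 and 1563 and Gata1 4149 and 4075 on the replated arrays, each above every sorted KO array. Pf4 read 143 and 137 and Car1 24.4 and 23.3 there, each below every sorted KO array. The part of these shifts, of the sex-linked difference and of culture itself in the inhibitors' values was not tested.

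**Figure D1:**
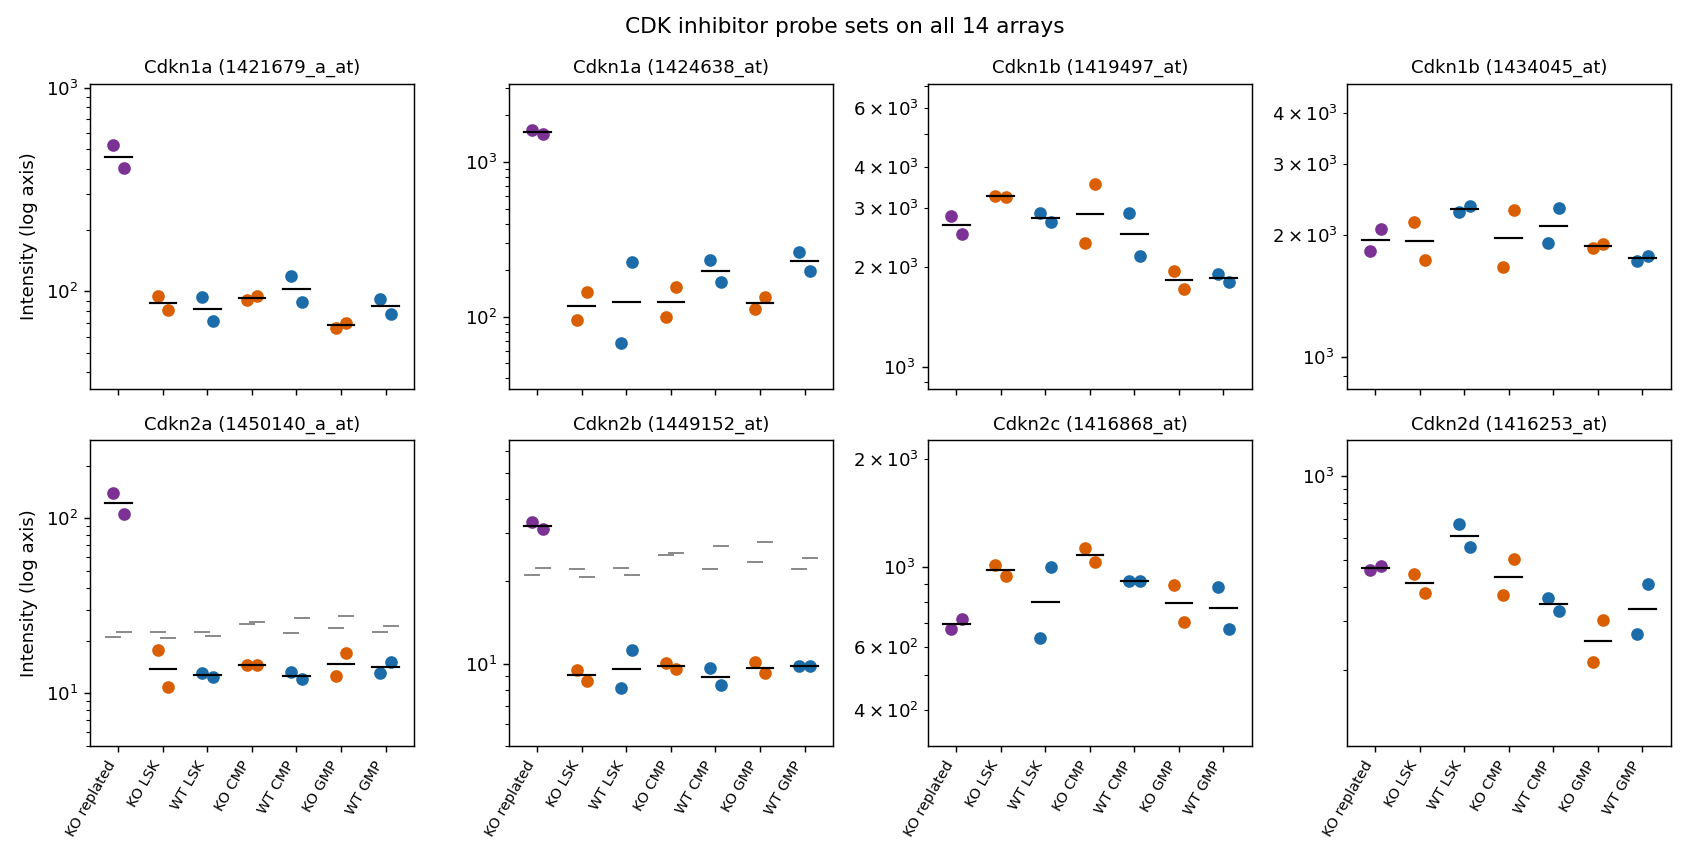
Intensity on a log axis of the 8 probe sets of the 6 inhibitor genes on all 14 arrays, with a panel for each probe set and its own range. Points are arrays, black lines are group means on the log2 scale (n = 2), and the short grey lines for Cdkn2a and Cdkn2b are the floor of each array; the replated arrays stand apart for Cdkn1a, Cdkn2a and Cdkn2b.

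Cdkn1a, which p53 and other factors switch on, rose in replated cells on both of its probe sets. Its starts are printed here because the gene rose, and CG pairs are marked because Tet2 acts on their cytosines. The rise was between 2 kinds of Tet2 KO cells, and no KO minus WT difference of Cdkn1a passed. A link of the rise to CG pairs was not tested. RefSeq (GRCm38.p6) gives windows at 9 starts for all 6 members, and each sequence printed covers the 250 bases before a start, with CG pairs in capitals. The first Cdkn1a start has its window at chr17:29090729-29090978 and the second, farther along the gene, at chr17:29093519-29093768, both on the plus strand.
Cdkn1a, first start: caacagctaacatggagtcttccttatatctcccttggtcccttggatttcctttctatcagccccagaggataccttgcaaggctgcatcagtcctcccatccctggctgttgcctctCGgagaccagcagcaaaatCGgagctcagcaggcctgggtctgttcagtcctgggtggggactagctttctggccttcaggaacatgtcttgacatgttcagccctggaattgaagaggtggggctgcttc
Cdkn1a, second start: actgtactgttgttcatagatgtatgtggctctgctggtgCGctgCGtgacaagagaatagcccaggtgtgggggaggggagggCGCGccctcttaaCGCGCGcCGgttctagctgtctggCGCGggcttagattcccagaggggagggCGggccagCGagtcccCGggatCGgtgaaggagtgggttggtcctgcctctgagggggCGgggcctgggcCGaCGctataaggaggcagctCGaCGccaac
They differ in CG content, with 2 CG pairs before the first start and 19 before the second, beside a median of 6 over all 32851 windows of 27025 genes. The window of the first start also holds 2 matches to the p53 half-site consensus, which reads the same on both strands, 73 and 51 bases upstream with a spacer of 12 bases. They are the capitals in this stretch at chr17:29090900-29090943 on the plus strand.
Cdkn1a, p53 half-site matches: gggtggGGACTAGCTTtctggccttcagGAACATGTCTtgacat
At least 1 such match occurs in 7.13% of all windows and 2 or more in 0.26%. Among the other members' windows, that of Cdkn2d held 1 match and the rest none. Only exact matches were counted. The stretch tgacatgttc, which directly follows the second Cdkn1a match in the first window, misses the consensus at its first base only and is not marked. The 2 marked matches are therefore not shown to be a pair. A match describes letters only, and binding was not measured.

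The 2 probe sets of Cdkn1a put both replated arrays far above every sorted array. With probe set 1424638_at, Cdkn1a read 1607 and 1525 on the replated KO arrays, against 95.5 and 144 in KO LSK, 100.3 and 155 in KO CMP and 113 and 134 in KO GMP. With 1421679_a_at it read 523 and 401 on the replated KO arrays, against 95.1 and 81.3 in KO LSK, 90.4 and 95.3 in KO CMP and 66.1 and 70.3 in KO GMP. The lowest replated value was thus above the highest of all 12 sorted arrays, 263 and 119 for the 2 probe sets in that order. On the log2 scale 1424638_at was higher by 3.74, 3.65 and 3.67 than in KO LSK, KO CMP and KO GMP (SE 0.50 each), which is 13.3-, 12.5- and 12.7-fold, with limma adjusted p of 7.26e-04, 8.49e-04 and 7.82e-04. For 1421679_a_at the differences were 2.38, 2.30 and 2.75 (SE 0.21 each), or 5.21-, 4.93- and 6.72-fold, with limma adjusted p of 5.66e-05, 7.36e-05 and 2.23e-05. Both probe sets thus gave the same direction and a different size.

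Among sorted cells the 2 Cdkn1a probe sets did not vary together, with a Pearson r of 0.06 and a Spearman rho of 0.04 over the 12 sorted arrays and an r of -0.40 without the 2 arrays farthest from the median, given as a description of arrays that fall into 6 groups. With 1424638_at, KO CMP read 100.3 and 155 against 233 and 169 in WT CMP, and KO GMP read 113 and 134 against 263 and 198 in WT GMP, so that KO lay lower without overlap in both. In LSK the same probe set read 95.5 and 144 in KO against 67.9 and 227 in WT, where the gap of 1.74 between the WT arrays on the log2 scale is the widest between replicates of any member. The KO minus WT difference over the 3 populations was -0.55 ± 0.29 on the log2 scale (SE; 95% interval -1.19 to 0.10) and did not pass (limma adjusted p = 0.642). By population it was -0.08 in LSK, -0.67 in CMP and -0.89 in GMP (SE 0.50 each). The other probe set gave 0.10 in LSK, -0.15 in CMP and -0.31 in GMP (SE 0.21 each), with -0.12 ± 0.12 over the 3. From LSK to GMP, 1424638_at differed by 0.07 in KO and 0.88 in WT (SE 0.50 each) and 1421679_a_at by -0.37 in KO and 0.04 in WT (SE 0.21 each), none past the threshold. Without the second WT LSK array the WT value of 1424638_at was 1.75 and passed (limma adjusted p = 0.0299), so that call rests on which of these 2 arrays is used.

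Cdkn1b, the Cip/Kip inhibitor that SCF-Skp2 marks for destruction, was at high intensity in all 7 groups and passed the test in none of the comparisons. With 1419497_at it read 2838 and 2516 on the replated KO arrays, against 3277 and 3253 in KO LSK, 2356 and 3554 in KO CMP and 1939 and 1715 in KO GMP. In WT cells it read 2906 and 2723 in LSK, 2913 and 2154 in CMP and 1908 and 1797 in GMP. In both genotypes the GMP arrays were the lowest, without overlap with LSK or CMP. GMP minus LSK was -0.84 ± 0.21 in KO (95% interval -1.32 to -0.36; limma adjusted p = 0.0639) and -0.60 ± 0.21 in WT (-1.09 to -0.12; limma adjusted p = 0.181), and GMP minus CMP in KO was -0.67 ± 0.21 (limma adjusted p = 0.357). The KO value passed when either KO CMP array was left out, with 1 probe set per gene and with trended, robust variances (limma adjusted p = 0.0337 to 0.0447), and the WT value passed under none of the alternatives. The second probe set, 1434045_at, did not follow: it read 1860 and 1898 in KO GMP against 2152 and 1740 in KO LSK, a difference of -0.04 ± 0.19 that spans -0.46 to 0.38, and gave -0.41 ± 0.19 in WT.

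No replated and no KO minus WT difference of Cdkn1b passed on either probe set. Replated minus KO LSK, KO CMP and KO GMP was -0.29, -0.11 and 0.55 with 1419497_at (SE 0.21 each; limma adjusted p = 0.436, 0.814 and 0.118). It was 0.01, -0.01 and 0.05 with 1434045_at (SE 0.19 each), with 95% intervals that stay between -0.44 and 0.47. KO minus WT was 0.21, 0.21 and -0.02 in LSK, CMP and GMP with the first probe set, and -0.26, -0.11 and 0.10 with the second. Over the 3 populations these came to 0.13 ± 0.12 and -0.09 ± 0.11. Cdkn1c (p57), the remaining Cip/Kip gene and no member here, was at 43.1 on the first WT LSK array and at 8.76 to 15.1 on the other 13, below the floor.

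Cdkn2a encodes p16, an INK4 inhibitor, and from an upstream start Arf, which protects p53 from Mdm2. Cdkn2b, which encodes p15, is its neighbour on chromosome 4. Their starts are printed because both genes rose together; all 3 windows lie on the minus strand, that of the upstream Cdkn2a start at chr4:89294620-89294869, that of the downstream one at chr4:89282193-89282442 and that of Cdkn2b at chr4:89311033-89311282, again with CG pairs in capitals.
Cdkn2a, upstream start: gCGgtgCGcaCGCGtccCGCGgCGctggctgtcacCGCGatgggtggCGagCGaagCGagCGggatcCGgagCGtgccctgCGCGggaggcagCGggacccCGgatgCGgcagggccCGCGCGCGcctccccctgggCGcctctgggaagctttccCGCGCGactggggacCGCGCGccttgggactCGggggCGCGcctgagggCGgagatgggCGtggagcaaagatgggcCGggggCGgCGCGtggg
Cdkn2a, downstream start: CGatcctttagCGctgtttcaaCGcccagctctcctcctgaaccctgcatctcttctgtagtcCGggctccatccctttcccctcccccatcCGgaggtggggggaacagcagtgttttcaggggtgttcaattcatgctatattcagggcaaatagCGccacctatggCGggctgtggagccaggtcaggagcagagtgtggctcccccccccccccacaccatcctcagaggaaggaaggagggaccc
Cdkn2b: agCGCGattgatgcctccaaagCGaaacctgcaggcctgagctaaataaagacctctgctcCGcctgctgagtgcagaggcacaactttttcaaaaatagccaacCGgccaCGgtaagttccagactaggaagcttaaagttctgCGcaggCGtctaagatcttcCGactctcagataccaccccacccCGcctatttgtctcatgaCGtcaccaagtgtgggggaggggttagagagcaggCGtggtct
The upstream Cdkn2a window holds 40 CG pairs, a number reached by 1.31% of all windows, while the downstream one holds 7 and that of Cdkn2b 12. For comparison, Cdkn1b has 28, Cdkn2c 29 and 6 at its 2 starts, and Cdkn2d 16. Methylation was not measured in these samples.

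Both genes lay below the floor on all 12 sorted arrays and above it on both replated arrays. Cdkn2a read 140 and 106 on the replated KO arrays, against 10.8 to 17.6 on the 6 sorted KO arrays and 12.1 to 15.1 on the 6 WT arrays. Cdkn2b read 32.9 and 31.2 on the replated KO arrays, against 8.64 to 10.1 on the sorted KO arrays and 8.12 to 11.2 on the WT arrays. Measured against the floor of the sorted arrays, Cdkn2a was at least 5.66-fold higher in replated cells than in KO LSK, at least 4.85-fold higher than in KO CMP and at least 4.77-fold higher than in KO GMP. The fitted log2 differences were 3.14, 3.08 and 3.06 (SE 0.25 each; limma adjusted p = 2.76e-05, 3.34e-05 and 3.21e-05). Cdkn2b was at least 1.49-, 1.27- and 1.25-fold higher, with fitted differences of 1.82, 1.71 and 1.73 (SE 0.17 each; limma adjusted p = 7.62e-05, 1.21e-04 and 1.07e-04). Its replated intensities compare with floors of 21.0 and 22.5 on the same arrays. A single probe set reads Cdkn2a, and its values do not tell p16 from Arf.

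The sorted groups gave no order for Cdkn2a or Cdkn2b, since all of them were below the floor, and no fold is given for KO against WT or between stages. Mtap, an enzyme of methionine salvage that neighbours the pair on chromosome 4, did not rise with them. Its brightest probe set read 825 and 880 on the replated KO arrays, against 1762 and 1545 in KO LSK, 1497 and 1466 in KO CMP and 731 and 992 in KO GMP. It fell by 0.95 relative to KO LSK and by 0.80 relative to KO CMP on the log2 scale (SE 0.16 each, limma adjusted p = 0.00289 and 0.00775) and differed by 0.00 from KO GMP. The other Mtap probe sets gave -1.06, -0.69 and -0.83 against KO LSK (limma adjusted p = 0.0476, 0.0718 and 0.0118). Against KO CMP they gave -0.65, -0.34 and -0.33, and none of these passed, so the fall there rests on the brightest probe set. The next gene, Dmrta1, was below the floor on all 14 arrays.

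Cdkn2c encodes p18 and was above the floor on every array. It read 676 and 719 on the replated KO arrays, against 1014 and 948 in KO LSK, 1131 and 1035 in KO CMP and 895 and 707 in KO GMP. In WT cells it read 636 and 1004 in LSK, 919 and 914 in CMP and 883 and 675 in GMP. The replated arrays were below those of KO LSK and KO CMP without overlap and overlapped with KO GMP. The differences were -0.49, -0.63 and -0.19 (SE 0.23 each) with limma adjusted p of 0.189, 0.0933 and 0.691, and their 95% intervals run from -1.15 at the lowest to 0.32 at the highest. The value against KO CMP passed when either WT LSK array was left out of the fit (adjusted p = 0.0377). KO minus WT was 0.29, 0.24 and 0.04 in LSK, CMP and GMP (SE 0.23 each), with 0.19 ± 0.13 over the 3. GMP minus LSK was -0.30 in KO and -0.05 in WT.

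Cdkn2d, which encodes p19, read 459 and 475 on the replated KO arrays, against 443 and 381 in KO LSK, 374 and 501 in KO CMP and 214 and 303 in KO GMP. In WT cells it read 672 and 554 in LSK, 365 and 326 in CMP and 271 and 409 in GMP. WT LSK was thus the highest group, above every other array of the gene, and KO GMP had the lowest mean but overlapped with WT GMP. Replated cells were 1.84-fold higher than KO GMP (log2 difference 0.88 ± 0.25, limma adjusted p = 0.0387) and differed by 0.19 and 0.11 from KO LSK and KO CMP. The call against KO GMP was lost without the first KO GMP array (0.62, adjusted p = 0.244), without the first or second replated array (0.90 and 0.85, adjusted p = 0.136 and 0.16), without either WT CMP array (adjusted p = 0.0565) and with trended, robust variances (adjusted p = 0.0527).

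In sorted cells the KO minus WT value of Cdkn2d was negative in LSK and GMP and positive in CMP. It was -0.57 ± 0.25 in LSK (95% interval -1.14 to -0.0044), 0.33 in CMP and -0.39 in GMP (SE 0.25 each), and -0.21 ± 0.14 over the 3. KO LSK lay below WT LSK without overlap and KO CMP above WT CMP, while the GMP arrays overlapped. The LSK value had an unadjusted p of 0.0486 and a limma adjusted p of 0.504, so it did not pass, and the test of whether the KO effect differed between populations gave an F of 3.57 (adjusted p = 0.899). From LSK to GMP it was lower by arrays that did not overlap in both genotypes, with -0.69 ± 0.25 in KO and -0.88 ± 0.25 in WT (limma adjusted p = 0.184 and 0.101). In WT the difference was already -0.82 ± 0.25 from LSK to CMP (adjusted p = 0.247), whereas in KO it was -0.77 ± 0.25 from CMP to GMP (adjusted p = 0.37).

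**Figure D2:**
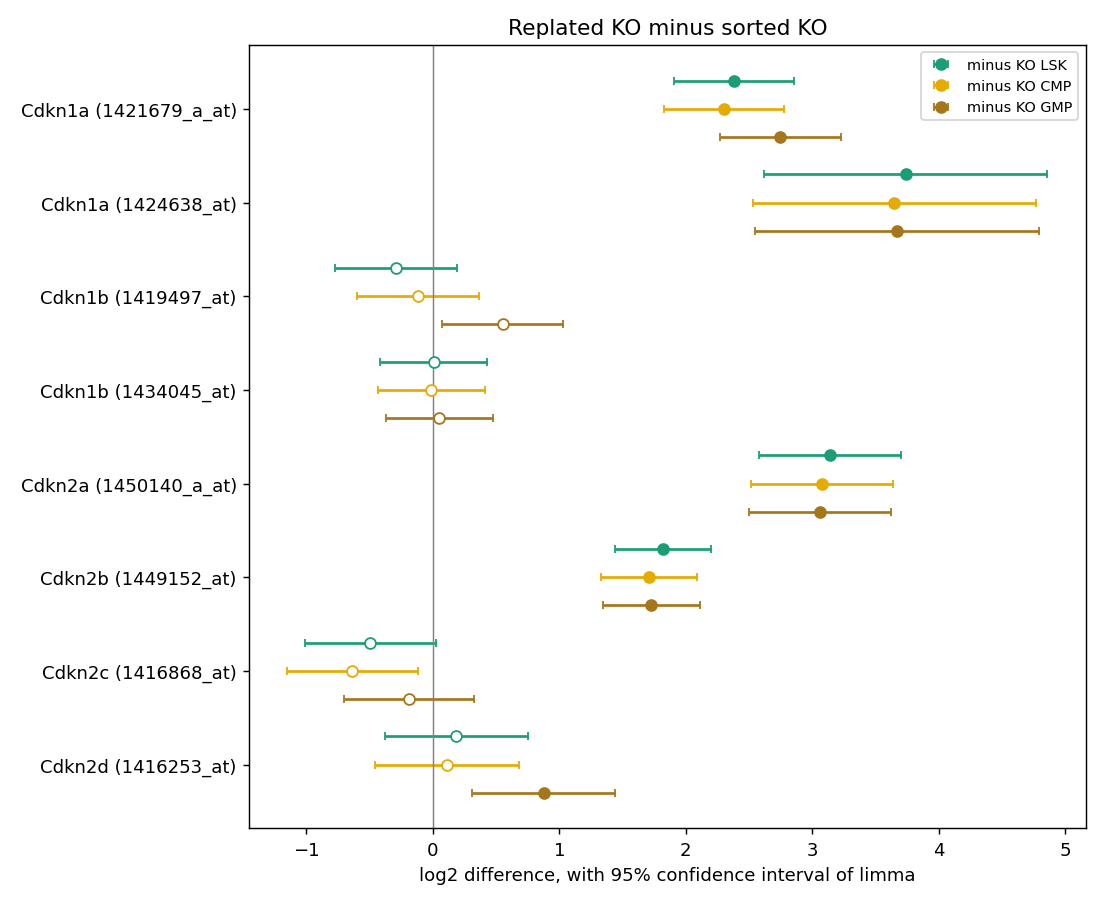
Log2 difference of replated KO cells from KO LSK, KO CMP and KO GMP (horizontal axis) for the 8 probe sets, with 95% confidence intervals of limma (n = 2 arrays a group). Filled points passed an adjusted p of 0.05; Cdkn1a, Cdkn2a and Cdkn2b lie to the right in all 3 comparisons, the values of Cdkn2a and Cdkn2b being fitted against groups below the floor.

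Taking the members as a list, KO and WT progenitors gave no call. None of the 8 probe sets passed in the mean of the 3 populations or in LSK, CMP or GMP, where 0.249%, 0.295%, 0.0844% and 0.0711% of all probe sets did (limma). At an unadjusted p below 0.05 the member counts were 0, 1, 0 and 0, beside 8.79%, 9.81%, 6.16% and 4.35% of all probe sets. KO arrays lay below WT without overlap for 2 of 8 probe sets in LSK, 1 in CMP and 2 in GMP, beside 15.7%, 15.4% and 17% of all. They lay above WT for 1, 3 and 1 of 8, beside 17.9%, 21% and 18.1%; 1 of the 3 in CMP is Cdkn2a, which lay below the floor in both groups and so has no order. The members' median KO minus WT difference was -0.04 over the 3 populations, beside 0.02 for all probe sets. The KO effect differed between populations for 0 of 8 probe sets and for 0% of all 45037, with 5.84% at an unadjusted p below 0.05 and 2 probe sets called with trended, robust variances. The widths of the intervals differ: those over the 3 populations reach at most 0.54 in either direction for the measured members other than 1424638_at of Cdkn1a, whose interval reaches -1.19.

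**Figure D3:**
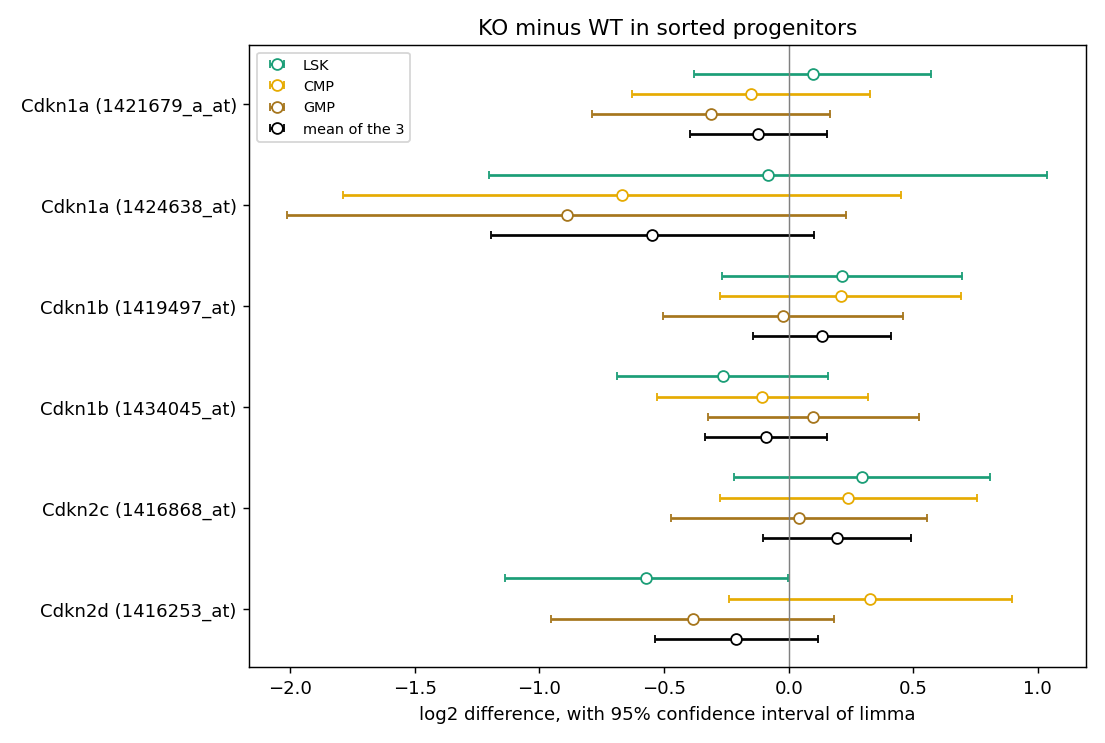
KO minus WT log2 difference (horizontal axis) in LSK, CMP and GMP and their mean for the 6 probe sets above the floor in sorted cells, with 95% confidence intervals of limma (n = 2 arrays a group). Open points did not pass an adjusted p of 0.05; 1424638_at of Cdkn1a has the widest intervals, and the LSK interval of Cdkn2d runs from -1.14 to -0.0044.

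Along the path from LSK through CMP to GMP, again none of the 8 passed in limma. In KO cells 0.588% of all probe sets passed between LSK and CMP, 0.406% between CMP and GMP and 4.34% between LSK and GMP. In WT cells these shares were 0.815%, 0.411% and 4.31%. At an unadjusted p below 0.05 the member counts were 0, 2 and 2 in KO and 1, 0 and 2 in WT, all of them 1419497_at of Cdkn1b or Cdkn2d, beside 12.4%, 8.39% and 18.2% of all probe sets in KO and 10%, 8.33% and 16.9% in WT. GMP arrays lay below LSK arrays without overlap for 4 of 8 probe sets in KO and 3 of 8 in WT, beside 19.6% and 17.7% of all. Over the 7 groups, the order of 1419497_at had a single step without overlap between neighbours, from WT CMP down to both GMP groups, whose arrays overlap. Cdkn1a had its largest step between the replated cells and the next group, WT CMP or WT GMP depending on the probe set. Among the sorted groups its neighbours overlapped except WT LSK over KO GMP with 1421679_a_at and WT CMP over KO CMP with 1424638_at. For Cdkn2c only KO CMP over KO LSK and KO LSK over WT CMP stood apart, for the second Cdkn1b probe set KO GMP over WT GMP, and for Cdkn2d WT LSK over the replated cells and KO LSK over WT CMP.

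**Figure D4:**
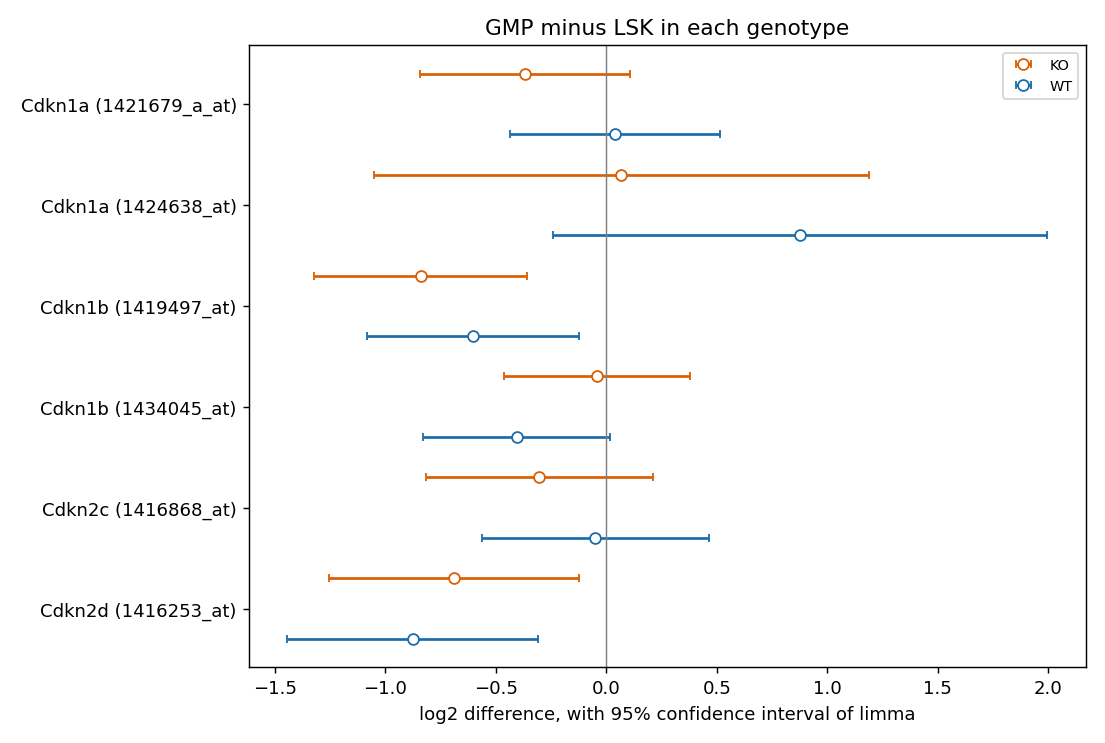
GMP minus LSK log2 difference (horizontal axis) in KO and WT for the 6 probe sets above the floor in sorted cells, with 95% confidence intervals of limma (n = 2 arrays a group). None passed an adjusted p of 0.05; 1419497_at of Cdkn1b and Cdkn2d lie left of 0 with their intervals in both genotypes.

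The genes that the inhibitors act on or answer to were set beside them for the same comparisons, each by its brightest probe set. Of 11 measured cyclins and CDKs, 4, 6 and 6 fell in replated cells relative to KO LSK, KO CMP and KO GMP and 0 rose (limma). The median log2 differences were -0.37, -0.76 and -0.62. Over all probe sets, 9.66%, 9.51% and 10.2% were lower and 9.35%, 8.83% and 8.77% higher. Cdk4, the partner of D cyclins and a target of INK4 proteins, read 1489 and 1214 on the replated KO arrays, against 3076 and 2874 in KO LSK, with log2 differences of -1.15, -1.51 and -1.52. Cdk1, the mitotic kinase, fell in all 3 (-1.39, -1.67 and -1.72), as did Cdk2, the partner of cyclins E and A (-1.17, -1.04 and -0.87). Ccnd1 (cyclin D1) was lower than in KO LSK and KO CMP (-1.89 and -1.05), and Cdk6 and Ccnb2 (cyclin B2) were lower than in KO CMP and KO GMP (-0.93 and -0.71, and -0.53 and -0.62).

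Genes of S phase entry fell as well. Of 14, 11, 10 and 10 fell relative to KO LSK, KO CMP and KO GMP and 0 rose, with medians of -1.18, -1.06 and -1.02. The shares over all probe sets were 9.66%, 9.51% and 10.2% lower and 9.35%, 8.83% and 8.77% higher. Mcm6, a part of the replicative helicase, read 904 and 873 on the replated KO arrays, against 2754 and 2660 in KO LSK, with log2 differences of -1.61, -1.78 and -1.72 (SE 0.13 each). Mcm7 and Mcm5, parts of the same helicase, fell too (-2.03, -2.36 and -2.19 for Mcm7, and -1.45, -2.21 and -2.13 for Mcm5). So did Cdt1, which loads that helicase (-2.32, -2.33 and -2.63), and Tk1, a thymidine kinase (-1.77, -1.60 and -1.84). The proliferation marker Mki67, named after its values were seen, did not pass, with -0.63, -0.12 and -0.09 (SE 0.50 each).

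Among 13 RB and E2F genes, 3, 2 and 2 rose and 5, 4 and 4 fell relative to KO LSK, KO CMP and KO GMP, with medians of -0.35, -0.54 and -0.67. Of all probe sets 9.35%, 8.83% and 8.77% were higher and 9.66%, 9.51% and 10.2% lower. Rb1 read 2906 and 4058 on the replated KO arrays, against 763 and 583 in KO LSK, 1112 and 1281 in KO CMP and 1464 and 1144 in KO GMP, with log2 differences of 2.36, 1.52 and 1.41 (SE 0.25 each; limma adjusted p = 1.74e-04, 0.00247 and 0.00365). Rbl2 (p130), the RB relative of resting cells, rose in all 3 (1.91, 1.83 and 1.85), while Rbl1 (p107) fell (-0.73, -0.78 and -0.83). E2f2, an activating E2F, was lower than in KO LSK and KO CMP (-2.17 and -1.70). Tfdp1, a partner of the E2Fs, fell in all 3 (-0.48, -0.55 and -0.67). E2f8, a repressing E2F, was 1.03 higher than in KO LSK. It was also higher in KO CMP and KO GMP than in KO LSK, by 1.18 and 1.10 (limma adjusted p = 0.0277 and 0.0107).

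Regulators of the inhibitors moved both ways, with 2, 1 and 4 of 32 higher and 7, 8 and 8 lower in replated cells than in KO LSK, KO CMP and KO GMP, with medians of -0.07, -0.02 and -0.21. Of all probe sets 9.35%, 8.83% and 8.77% were higher and 9.66%, 9.51% and 10.2% lower, so the higher counts are near the shares over all probe sets. Smad3, a carrier of TGF-beta signals, which raise Cdkn2b, had the largest fall, to 177 and 118 on the replated KO arrays against 3117 and 3545 in KO LSK, with -4.52, -4.30 and -3.82 (SE 0.19 each). The other 2 Smad3 probe sets gave values between -0.998 and 0.03 and did not pass. Myc, which represses Cdkn1a and Cdkn2b, fell in all 3 (-1.76, -1.89 and -1.60). Skp2 and Cks1b, which take p27 to the proteasome, fell in all 3 (-0.88, -1.92 and -2.18 for Skp2, and -0.66, -0.78 and -0.82 for Cks1b). Dtl, which does the same for p21, fell likewise (-1.77, -1.93 and -1.86). Mdm2, a p53 target and the inhibitor of p53, named after its values were seen, rose by 0.58, 0.72 and 0.63 (SE 0.17 each; limma adjusted p = 0.0397, 0.0151 and 0.028). Trp53 itself was not analysed here. Smad2 was called higher than in KO LSK (0.97), while its other probe set gave -1.34 and did not pass. Fbxw7 was called higher than in KO GMP (1.45), and its other probe set, at 1.46, did not pass.

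Other probe sets of the pathway genes called in replated cells followed in part. Counted once per comparison there were 146, of which 90 moved the same way at an unadjusted p below 0.05, 39 did not reach it, 16 lay below the floor in both groups and 1, of E2f6 against KO LSK, went the other way. In KO and WT progenitors 0 genes of these 4 lists passed in any population (limma), with at most 4 of 11 cyclins and CDKs, 3 of 13 RB and E2F genes, 6 of 32 regulators and 2 of 14 S phase genes at an unadjusted p below 0.05 in a single comparison. The same threshold was passed by 8.79% of all probe sets over the 3 populations and by 9.81%, 6.16% and 4.35% in LSK, CMP and GMP. Between stages, beside E2f8, Skp2 was higher and Ccnd1 lower in KO GMP than in KO LSK (log2 differences 1.30 and -1.56, limma adjusted p = 0.00684 and 0.0265). The FOXO factor Foxo3, an activator of Cdkn1b, fell by 0.58 in WT GMP relative to WT LSK (limma adjusted p = 0.0495). In replated cells Foxo3 was called higher than in KO GMP, by 0.61. Its other probe sets gave 0.64 and 0.66 there, of which the first passed (limma adjusted p = 0.00556).

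**Figure D5:**
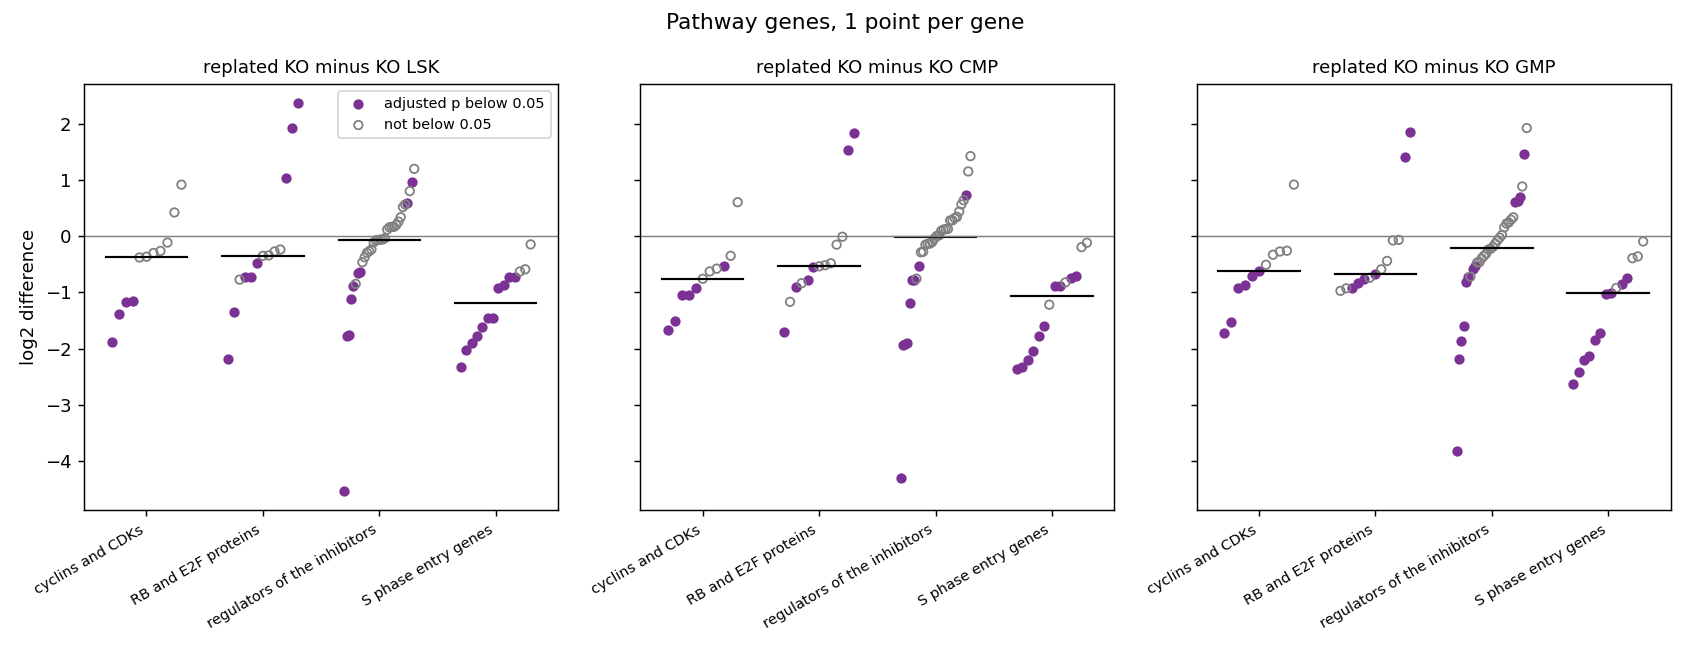
Log2 difference of replated KO cells from KO LSK, KO CMP and KO GMP (vertical axis, a panel for each) for the measured genes of the 4 pathway lists, 1 point a gene ordered by value. Filled points passed an adjusted p of 0.05 and black lines are list medians; all filled points of cyclins and CDKs and of S phase genes lie below 0.

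The genes most like each inhibitor over the 7 group means, among 6792 genes with more than a clone or model name that lay above the floor in at least 1 group and varied by at least 1 log2 unit, differed between the members. Cdkn2a was closest to Slc6a4 (serotonin transporter, r = 0.9997), Tktl1 (transketolase-like, r = 0.9997) and Tph1 (tryptophan hydroxylase of serotonin synthesis, r = 0.9995), and Cdkn2b to Bmp7 (a bone morphogenetic protein, r = 0.9994), Syngr1 (synaptogyrin, r = 0.9988) and Tpsb2 (a mast cell tryptase, r = 0.9988). Cdkn1a, by 1424638_at, was closest to Zfr2 (r = 0.988), Pde1c (a phosphodiesterase, r = 0.987) and Fam174b (r = 0.986). These likenesses rest on the replated group standing apart. With Cdkn2a, Cdkn2b and Cdkn1a, 392, 376 and 189 genes exceeded 0.95, and the order within the top is not resolved. Cdkn2a, Cdkn2b, Slc6a4, Tktl1, Tph1 and Bmp7 lay below the floor on every sorted array and entered only through the replated group. Their r values near 1 thus follow from how they were chosen. Zfr2 likewise lay below the floor on every sorted array and entered only through the replated group. Its r with Cdkn1a is therefore no measured likeness among the sorted cells. Cdkn1b, by its probe set 1419497_at alone, which 1434045_at did not follow, was closest to Usp18 (an interferon-induced protease, r = 0.989, itself at 441 and 113 on the KO LSK arrays), Ctxn1 (r = 0.976) and Il12rb1 (an interleukin receptor chain, r = 0.974), with 16 genes above 0.95. Cdkn2c was closest to Icam4 (r = 0.991), Tuft1 (r = 0.986) and Pls1 (a plastin, r = 0.976). Cdkn2d was closest to Irf9 (an interferon response factor, r = 0.971), Shroom4 (r = 0.965) and Zfp51 (r = 0.958), with 4 genes above 0.95 for each. Replicates of some lay far apart. Icam4 read 462 and 50.0 and Irf9 1142 and 579 in KO LSK, and Tuft1 273 and 768 in KO CMP. The group means of Cdkn2c and Cdkn1b ranged over 0.63 and 0.84 log2 units, less than the 1 unit asked of the candidates. Each correlation describes 7 points, group means that share the arrays and their normalization.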

How the data were processed

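The authors deposited probe-set intensities for 14 arrays, made with RMA per the submitters' processing notes. That method subtracts background, brings the arrays to a common distribution and combines each set's probes. Its version is not stated in those notes, nor is which arrays were processed jointly. Per the labels' protocols, 5 ng of total RNA was amplified and biotin-labelled. The deposited intensities are on a linear scale, so log2 was taken. The 64 control probe sets were left out of the tests, which used the other 45037; 34945 of these have 1 gene symbol in the platform annotation, 932 have several and 9160 are not listed there. The tests used R 4.3.3 with limma 3.58.1 (functions lmFit and eBayes), 1 mean per group over all 14 arrays, with 7 residual and 2.02 prior degrees of freedom, two-sided, and Benjamini-Hochberg adjustment over all probe sets at 0.05. Errors are moderated standard errors (SE) over 2 arrays a group. The fit was tested on simulated data with known changes. Where every array of a group lay at or below its floor, the fold is given as a bound, taken against the mean log2 floor of those arrays.

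Genes other than the members were represented by their probe set with the highest mean. The rule for naming genes took all members, up to 4 called genes with the smallest p from each pathway list, and the 3 genes with the closest pattern. Other genes were named outside this rule. Mki67, Mdm2, Smad2, Fbxw7 and the rise of Foxo3 in replated cells were named after their values were seen. Cdkn1c, Mtap, Dmrta1, Tet2, the sex-linked genes and the cell type genes were not chosen by this rule either. The members and lists were chosen with earlier results of these data known. Same-numbered arrays did not deviate together (correlations between -0.08 and 0.07), so no pairing was used. Correlations between the arrays of a group lay between 0.961 and 0.993. Precision is set by 2 arrays a group, and scan dates were not used. Alternatives left out each array, added a replicate block, fitted only the groups compared, kept 1 probe set per gene or those above the floor, added 16 before log2, normalized by quantiles, or used trended, robust variances. Python 3.11.15, pandas 2.3.3 and matplotlib 3.10.9 drew the figures and read the RefSeq windows.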

Additional observations from a re-analysis of the deposited data

How the results depend on the processing

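Of 63 member differences on probe sets above the floor in at least 1 group compared, 13 passed, and their 270 values under the alternatives kept their sign, 264 of them past the threshold; the 6 losses all concern Cdkn2d against KO GMP. Another 7 values of uncalled differences passed: 4 of 1419497_at of Cdkn1b and 1 of 1424638_at of Cdkn1a for GMP minus LSK, and 2 of Cdkn2c against KO CMP. The counts of called members among 8 ranged over leave-one-out fits from 4 to 4 against KO LSK, 4 to 5 against KO CMP and 4 to 5 against KO GMP. For GMP minus LSK they ranged from 0 to 1 in KO, with 1 also for 1 probe set per gene and for trended, robust variances (each time 1419497_at of Cdkn1b), and from 0 to 1 in WT (1424638_at of Cdkn1a). The replicate block changed no member count: it left 4, 4 and 5 called against KO LSK, KO CMP and KO GMP and 0 for KO minus WT. Where an array was left out, the lone array of its group was assumed to vary like the other groups. The 63 differences do not cover every comparison given above, and changes in the single steps from LSK to CMP and from CMP to GMP were not listed. Values of uncalled differences that changed sign are given as leave-one-out ranges. For KO minus WT in LSK these were -0.10 to 0.29 (Cdkn1a, 1421679_a_at), -0.95 to 0.79 (Cdkn1a, 1424638_at) and -0.034 to 0.62 (Cdkn2c). In CMP they were -0.36 to 0.060 (Cdkn1a, 1421679_a_at), -0.089 to 0.50 (Cdkn1b, 1419497_at) and -0.34 to 0.13 (Cdkn1b, 1434045_at), and in GMP -0.11 to 0.066 (Cdkn1b, 1419497_at) and -0.15 to 0.24 (Cdkn2c). For GMP minus LSK they were -0.23 to 0.36 (Cdkn1a, 1424638_at) and -0.20 to 0.11 (Cdkn1b, 1434045_at) in KO, and -0.16 to 0.24 (Cdkn1a, 1421679_a_at) and -0.38 to 0.28 (Cdkn2c) in WT. For replated minus KO LSK, Cdkn1b with 1434045_at ranged from -0.14 to 0.16 and was -0.034 after quantile normalization. Against KO CMP the ranges were -0.41 to 0.18 (Cdkn1b, 1419497_at), -0.25 to 0.22 (Cdkn1b, 1434045_at) and -0.10 to 0.32 (Cdkn2d), and against KO GMP -0.037 to 0.14 (Cdkn1b, 1434045_at). Over all probe sets the leave-one-out calls ranged from 58 to 658 for KO minus WT in LSK (133 with all arrays), from 25 to 176 in CMP (38) and from 25 to 70 in GMP (32), and 0 to 137 for the difference between populations (0). Fitting only the groups compared called 0, 5 and 6 in LSK, CMP and GMP. Of replated minus KO LSK, KO CMP and KO GMP, leave-one-out calls reached down to 5207, 4941 and 5332 against 8561, 8260 and 8545 with all arrays. The cause of these changes was not tested. Where both groups lay below the floor, as Cdkn2a and Cdkn2b did among sorted cells, signal over background limits what can be said.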
